A study of Mus musculus with 2 samples.

Results

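The genes described here are 37 interferon-stimulated genes chosen by name, of which 36 had a row in both count tables among 27998 genes. Mx2 was not analysed here. They were followed across 5 classes of single cells from the heart. Each class was defined by unique molecular identifiers (UMIs, tags that each mark 1 captured RNA molecule) of marker genes outside the 36. Fibroblasts needed at least 5 UMIs of Dcn. Endothelium, which lines the vessels, needed at least 2 UMIs over Pecam1, Cdh5 and Egfl7. Mural cells, which wrap small vessels, needed at least 4 UMIs over Rgs5, Kcnj8 and Vtn. Macrophages needed at least 15 UMIs over C1qa, C1qb and C1qc, and T cells at least 2 UMIs over Cd3d, Cd3e and Cd3g. A cell entered a class when it passed 1 of these gates and no other.

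The cells were non-myocytes from the ventricles of 2 wild type C57BL/6 mice aged 10-12 weeks, both in the same untreated group, with 1 library per mouse. Myocytes had been removed by low-speed spins and dead cells by sorting before droplet capture, so the values describe cells that survived digestion, and changes during dissociation cannot be told apart from the state of the tissue. All comparisons are therefore between cell classes of the same 2 hearts.

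Interferons are secreted alarm proteins of antiviral defence. Type I interferons bind the IFNAR1 and IFNAR2 receptor chains, the kinases JAK1 and TYK2 then activate a complex that holds STAT2 and IRF9, which binds the interferon-stimulated response element in the promoters of target genes. Interferon gamma uses IFNGR1 and IFNGR2, and it drives many of the guanylate-binding and immunity-related GTPases. Many target genes are also read at a low level with no infection.

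The kept cells numbered 6608 in mouse 1 and 5687 in mouse 2. The classes held 1859 and 1302 fibroblasts, 925 and 1268 endothelial cells, 63 and 42 mural cells, 2989 and 2360 macrophages, and 102 and 87 T cells. Median depth per cell ran from 1294 UMIs (mural cells, mouse 2) to 2841 UMIs (macrophages, mouse 1), and the summed UMIs of a class from 55838 to 9197703. Every marker of a class that its gate did not use stood highest in that class in both mice (7 of 7 for fibroblasts, 6 of 6 for endothelium, mural cells and macrophages, 4 of 4 for T cells). The endothelial marker sum in the mural gate was still 17.5% and 18.1% of its level in endothelium. The T cell gate also held 1548 and 1781 CPM of the 4 natural killer cell markers, where CPM means UMIs per 1000000 UMIs of the class. Neutrophil markers summed to 119 to 714 CPM over the classes of mouse 1 and to 0 to 22.2 CPM in mouse 2. The tables shared 65 barcode sequences.

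The promoters are shown first because the genes were grouped by their response to interferon and the response element is a readable stretch of sequence. RefSeq promoter windows (build GRCm38.p6, 250 bases before to 50 after the start of a gene) matched 28 of the 36 genes. Usp18, Dhx58, Zbp1, Mx1, Iigp1, Ifi27l2a, Rtp4 and Parp14 had no match. The core of the response element, searched as GAAANNGAAA on both strands with overlaps kept, occurred in the windows of 17 of the 28 genes (60.7%), against 1079 of 27025 genes with a window (3.99%). Of the 17 genes, 13 carried a match before the start that the window uses and 4 (Ifih1, Ddx58, Eif2ak2 and Ifitm3) at or after it. The gene annotation used below starts Gbp2 at base 142620602, inside its stretch and before its match, so the 2 sources differ there. The stretches below run 5′ to 3′ on the strand of the gene, and capitals mark the matches, which read TTTCNNTTTC where the element lies on the other strand.
Isg15, chr4:156200860-156200911, minus strand: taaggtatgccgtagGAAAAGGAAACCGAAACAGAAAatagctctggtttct
Ifit1, chr19:34640770-34640828, plus strand: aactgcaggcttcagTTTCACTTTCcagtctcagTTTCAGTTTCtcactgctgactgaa
Ifit3, chr19:34583358-34583431, plus strand: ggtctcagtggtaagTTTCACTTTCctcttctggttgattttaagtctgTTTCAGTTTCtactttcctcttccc
Ifit3b, chr19:34607754-34607827, plus strand: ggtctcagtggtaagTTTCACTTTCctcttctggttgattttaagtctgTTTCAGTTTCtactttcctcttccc
Oas1a, chr5:120907526-120907560, minus strand: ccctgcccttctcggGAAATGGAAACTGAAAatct
Igtp, chr11:58199507-58199546, plus strand: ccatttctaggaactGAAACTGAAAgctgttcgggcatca
Gbp2, chr3:142620589-142620628, plus strand: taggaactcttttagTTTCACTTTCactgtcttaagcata
Rsad2, chr12:26456548-26456587, minus strand: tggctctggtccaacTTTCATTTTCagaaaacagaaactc
Bst2, chr8:71537572-71537617, minus strand: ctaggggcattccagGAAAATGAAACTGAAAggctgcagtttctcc

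Isg15 carried 3 overlapping matches, and Ifit1 and Ifit3 carried 2 separate ones. The Ifit3 and Ifit3b stretches were identical over all 74 bases, and the annotated transcripts of these neighbouring copies were 98.0% identical over 1697 aligned bases, so the split of UMIs between these 2 genes is uncertain. A match is a description of the letters and not a measured binding site.

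By CPM, endothelium had the highest basal level of most of the list. Of the 36 genes, 24 were highest in endothelium in both mice, 3 in macrophages, 1 in T cells, and none in fibroblasts or mural cells. For the other 8 the highest class differed between the mice. Among the 3 classes with the most cells, 28 genes stood in both mice of endothelium above both mice of fibroblasts and macrophages, 5 did so in macrophages and none in fibroblasts. These counts compare plain CPM, without the scaling between classes that the tests below apply. They were formed for the 36 genes only, so no share over all genes stands beside them. Rtp4 is among the 24 and the 28, and its fitted difference from macrophages, given below, was slightly negative and not called. Leaving out Ifitm3, Bst2 and Ifi27l2a, whose UMIs dominated the resting sums, the other 33 genes (the score genes below) summed to 3421 and 4120 CPM in endothelium of mouse 1 and mouse 2. Macrophages followed with 1603 and 1456 CPM, fibroblasts with 1053 and 846 CPM and T cells with 1019 and 969 CPM. Mural cells had 1297 and 734 CPM from 117 and 41 UMIs. Endothelium lay above every other class in both mice, macrophages lay above fibroblasts and T cells, and the values of fibroblasts, mural cells and T cells overlapped. With those 3 genes included macrophages came first in mouse 1 (11091 CPM against 9103 in endothelium) and endothelium in mouse 2 (8790 CPM against 7369 in macrophages).

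**Figure D1:**
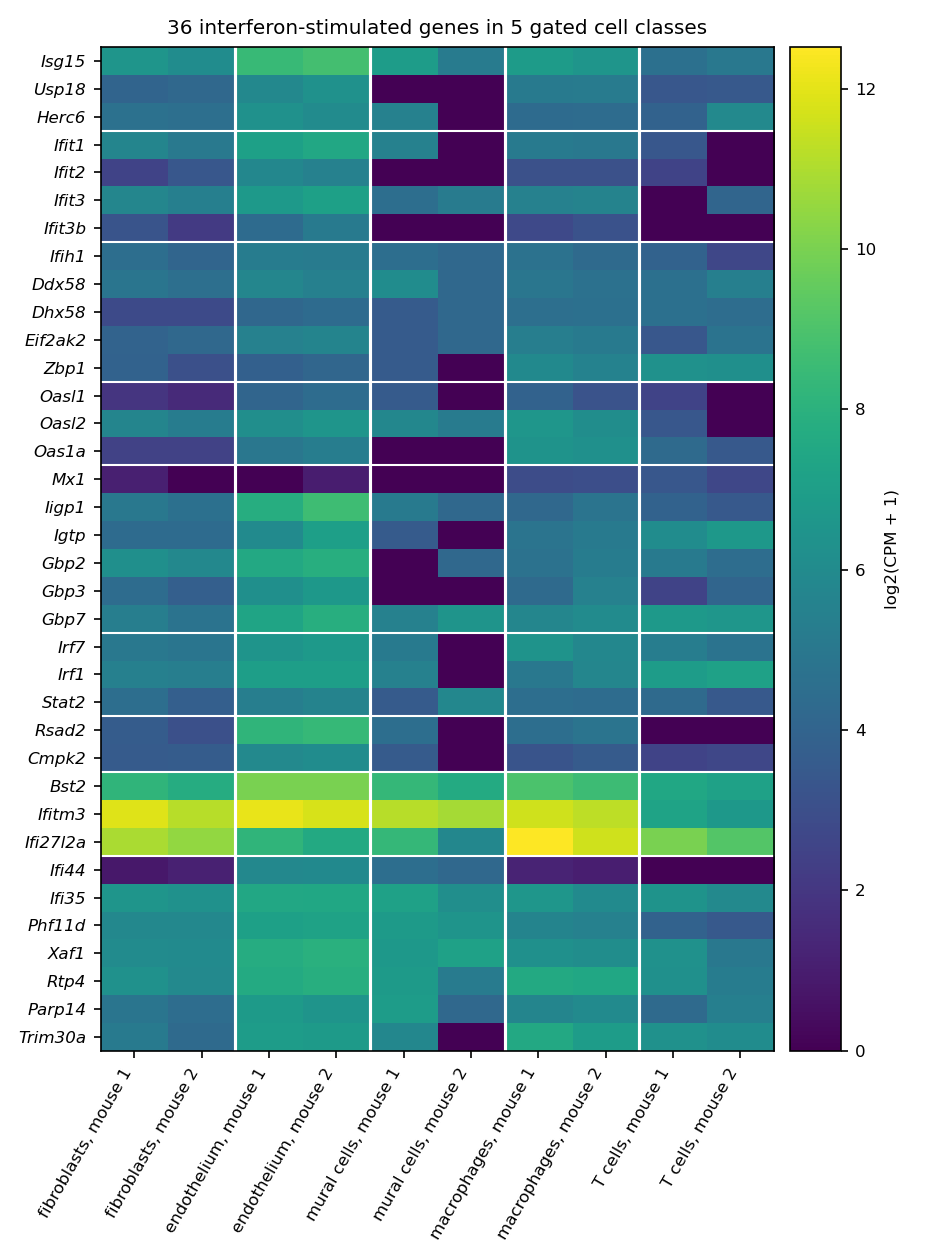
Level of each of the 36 genes as log2(CPM + 1), genes in rows grouped by role (white lines) and the 5 classes of mouse 1 and mouse 2 in columns. The endothelial columns are the brightest for most rows, Ifi27l2a is brightest in macrophages, and the mural and T cell columns, which rest on few UMIs, hold many entries of 0.

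Tests used UMIs summed per class and mouse (edgeR quasi-likelihood, mouse as a block). A gene was called when its adjusted p over the 11462 genes tested was below 0.05 and its log2 fold change was at least 1 in size. Each fold change below rests on 2 mice and carries its standard error (SE) from the fit, which is not the spread of that gene between the mice. Against fibroblasts, 29 of the 36 genes were called higher in endothelium, where 14.3% of all genes tested were, and 1 was called lower, where 16.0% were. The median log2 fold change was 1.74 over the 36 genes and -0.03 over all genes. The direction was the same in both mice for 33 genes higher and 1 lower, a count that was not formed over all genes. Against macrophages, 16 were called higher in endothelium (16.6% of all genes) and 4 lower (16.5% of all genes), with a median of 0.81 against -0.03 over all genes. All comparisons of endothelium share the endothelial sums, so they are not independent of each other.

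**Figure D2:**
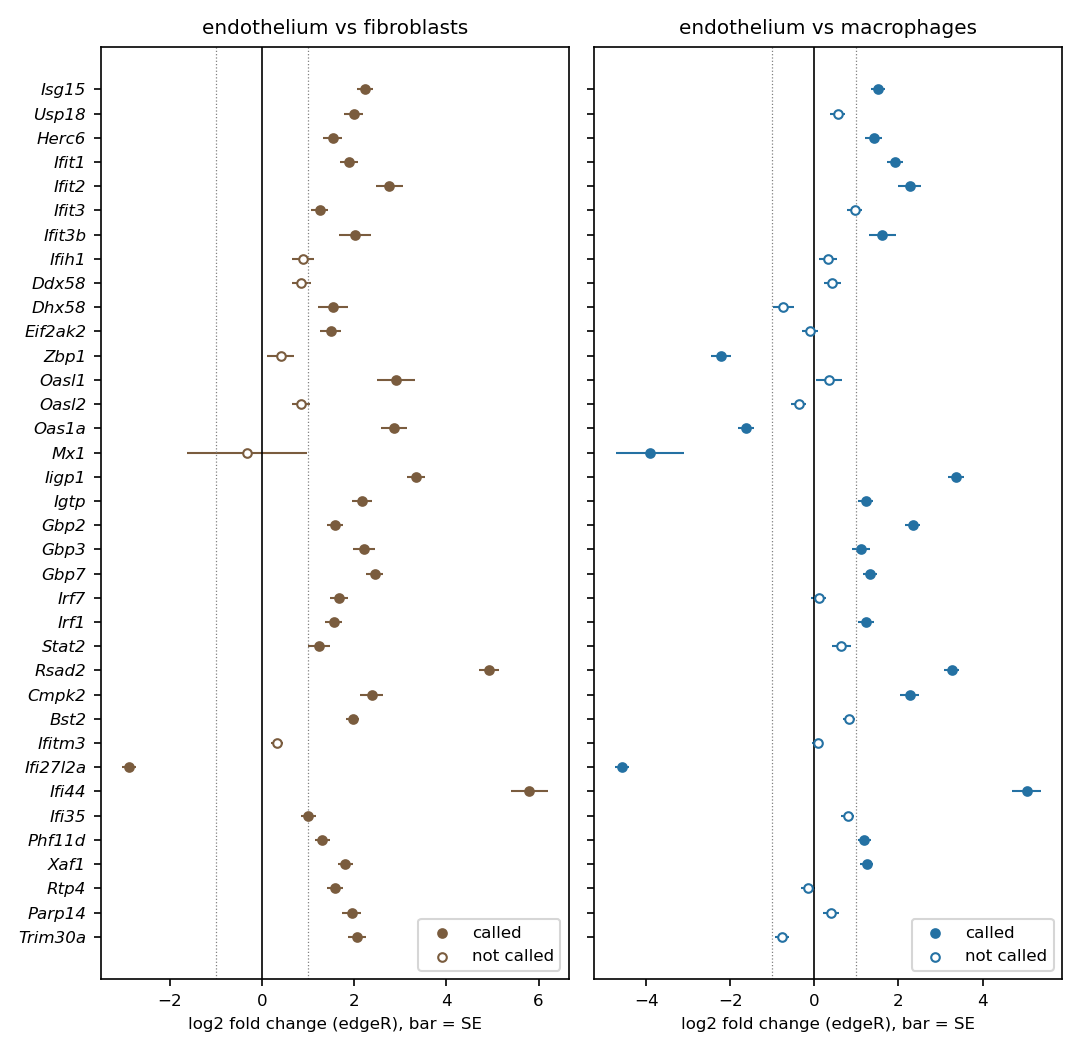
Log2 fold change of endothelium over fibroblasts (left) and over macrophages (right) for each of the 36 genes, with bars of 1 SE and filled points for called genes. Most points lie right of 0 on the left, and Ifi44, Rsad2 and Iigp1 lie far right in both panels. Ifi27l2a lies far left in both.

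The 5 sensors of viral nucleic acid did not share 1 pattern. Ifih1 (MDA5, a sensor of long double-stranded RNA) had 37.7 and 35.7 CPM in endothelium, 25.5 and 19.2 in macrophages and 22.2 and 16.1 in fibroblasts. Ddx58 (RIG-I, which reads RNA ends) had 53.0 and 43.1, 29.4 and 24.3, and 28.4 and 22.4 CPM in the same order. For both genes endothelium lay above the other 2 classes in both mice, but the differences stayed under the fold needed for a call (log2 0.89 ± 0.23 and 0.85 ± 0.21 against fibroblasts). Dhx58 (LGP2, which tunes both sensors) had 17.2 and 19.8 CPM in endothelium, 23.2 and 23.4 in macrophages and 6.06 and 6.07 in fibroblasts, and both endothelium (1.54 ± 0.32) and macrophages (2.28 ± 0.26) were called above fibroblasts. Eif2ak2 (PKR, a kinase that stops translation) was also lowest of these classes in fibroblasts, with 44.7 and 48.6 CPM in endothelium, 40.3 and 34.8 in macrophages and 14.6 and 17.6 in fibroblasts. In both mice endothelium lay above macrophages for Eif2ak2 and below them for Dhx58. Zbp1, a sensor of Z-form nucleic acid linked to cell death, had 61.4 and 45.6 CPM in macrophages and 81.0 and 73.3 CPM in T cells, against 13.4 and 16.4 CPM in endothelium, and was called lower in endothelium than in either (-2.21 ± 0.24 and -2.25 ± 0.39).

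Of the transcription factors, Irf7, which amplifies type I interferon production, had 88.7 and 105 CPM in endothelium, 84.0 and 54.7 in macrophages and 31.1 and 27.9 in fibroblasts. Endothelium lay above macrophages in both mice, by little in mouse 1, and both were called above fibroblasts (1.68 ± 0.20 and 1.58 ± 0.18). Stat2, a partner of IRF9, had 39.6 and 47.6 CPM in endothelium against 22.0 and 13.04 in fibroblasts (1.24 ± 0.24, called) and 22.2 and 20.4 in macrophages (0.64 ± 0.22, not called). Irf1, a factor that interferon gamma induces strongly, had 128 CPM in endothelium of both mice and 119 and 141 CPM in T cells. Macrophages had 31.3 and 52.3 CPM and fibroblasts 42.3 and 40.0 CPM. Irf1 was the only 1 of the 36 genes called higher in T cells than in macrophages (1.18 ± 0.28).

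The ISG15 system attaches and removes a ubiquitin-like protein. Isg15, the modifier itself, had 343 and 431 CPM in endothelium, 117 and 90.5 in macrophages, 91.9 and 67.3 in fibroblasts, and 23.8 and 31.4 in T cells. Endothelium was clear of every other class in both mice, with log2 differences of 2.23 ± 0.17 over fibroblasts (adjusted p = 4.0e-17) and 1.51 ± 0.17 over macrophages (adjusted p = 1.0e-11). Usp18, the protease that removes ISG15 and brakes the receptor, had 56.2 and 80.8 CPM in endothelium, 34.4 and 35.4 in macrophages and 15.3 and 17.6 in fibroblasts, and the step from macrophages to endothelium was not called (0.55 ± 0.18). Herc6, the main ISG15 ligase of the mouse, had 78.5 and 65.5 CPM in endothelium, 20.005 and 20.4 in macrophages and 24.6 and 22.7 in fibroblasts.

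The IFIT proteins bind foreign RNA and block its translation. Ifit1 had 137 and 183 CPM in endothelium, 34.03 and 30.9 in macrophages and 51.5 and 31.8 in fibroblasts. Ifit2 had 54.2 and 43.6 CPM in endothelium against 7.502 and 7.60 in macrophages and 4.74 and 9.71 in fibroblasts. Both were called higher in endothelium than in either class, Ifit2 by 2.76 ± 0.30 over fibroblasts and Ifit1 by 1.88 ± 0.19. Ifit3 had 103 and 135 CPM in endothelium, 44.3 and 47.9 in macrophages and 53.2 and 41.9 in fibroblasts, and its neighbour Ifit3b 19.8 and 34.7, 5.87 and 7.75, and 8.53 and 3.34 CPM. In T cells the 4 genes together had 3 UMIs in each mouse, or 14.3 and 15.7 CPM, against 315 and 397 CPM in endothelium.

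The 2′-5′ oligoadenylate synthetases, which activate RNase L when they meet double-stranded RNA, also differed among themselves. Oas1a was highest in macrophages, with 84.9 and 77.2 CPM against 30.6 and 38.7 in endothelium and 4.55 in fibroblasts of both mice. It was called lower in endothelium than in macrophages (-1.63 ± 0.19) and higher than in fibroblasts (2.87 ± 0.28). Oasl1, a family member that limits translation of IRF7, had 16.0 and 20.3 CPM in endothelium, 14.2 and 8.06 in macrophages and 2.84 and 1.82 in fibroblasts. Oasl2 had 94.6 and 68.7 CPM in macrophages, 72.8 and 90.7 in endothelium and 51.4 and 37.6 in fibroblasts, and macrophages and endothelium overlapped.

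Among the GTPases most members stood highest in endothelium. Iigp1, an immunity-related GTPase that attacks the vacuoles of intracellular parasites, had 225 and 394 CPM in endothelium against 31.3 and 23.4 in fibroblasts, 17.6 and 27.1 in macrophages and 14.3 and 10.5 in T cells. Endothelium was called above each of them, by 3.35 ± 0.19, 3.37 ± 0.19 and 4.66 ± 0.42. Igtp, a regulator of the same family, had 62.5 and 131 CPM in endothelium and 66.7 and 99.5 in T cells, which overlapped, and 27.3 and 33.9 in macrophages and 19.7 in fibroblasts of both mice. The guanylate-binding proteins, which coat and open such vacuoles, were all called higher in endothelium than in fibroblasts and macrophages. Gbp3 was not called against macrophages in DESeq2 or with cells of several gates kept. Gbp2 had 189 and 230 CPM in endothelium, 25.3 and 37.4 in macrophages and 73.7 and 57.0 in fibroblasts. Gbp3 had 74.0 and 102, 19.1 and 44.5, and 20.3 and 13.04 CPM, and Gbp7 160 and 232, 52.5 and 64.9, and 39.8 and 26.7 CPM in the same order. For Gbp2 fibroblasts lay above macrophages in both mice, and for Gbp7 the order was the other way. Mx1, a large GTPase that blocks viral replication and that is defective in most inbred laboratory strains, was read at 6.63 and 7.15 CPM in macrophages, on 61 and 47 UMIs. Endothelium had 2 UMIs of it in all, so that macrophages stood 12.3-fold higher (95% counting interval 3.31 to 103).

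Rsad2 and Cmpk2 lie head to head on chromosome 12, with start sites 12752 bases apart in the annotation of the same build, and both act on nucleotides. Rsad2 (viperin) had 293 and 335 CPM in endothelium against 22.0 and 27.4 in macrophages and 11.6 and 7.28 in fibroblasts. It was called higher in endothelium by 4.92 ± 0.21 over fibroblasts (adjusted p = 2.2e-28) and by 3.26 ± 0.18 over macrophages. T cells had 0 UMIs of Rsad2 in both mice, which puts endothelium at least 42.3-fold higher (with 3 UMIs over the group as the floor). Cmpk2, a mitochondrial nucleotide kinase, had 58.7 and 66.0 CPM in endothelium, 8.37 and 11.1 in macrophages and 11.2 and 11.5 in fibroblasts, called in both comparisons (2.38 ± 0.24 and 2.27 ± 0.23).

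The 3 membrane proteins made up 57.9% of the summed CPM of the 36 genes in endothelium, 83.4% in macrophages and 84.1% in fibroblasts. Bst2 (tetherin, which holds budding virus at the surface) had 1025 and 1023 CPM in endothelium, 503 and 377 in macrophages and 296 and 215 in fibroblasts. Ifitm3, which blocks viral entry by fusion, was near even across these classes, with 4361 and 3454 CPM in endothelium, 3120 and 2437 in macrophages and 3834 and 2296 in fibroblasts, and stood apart in T cells at 152 and 99.5 CPM. Ifi27l2a, a small protein of internal membranes, ran against the rest of the list. It had 5865 and 3099 CPM in macrophages, 1975 and 1448 in fibroblasts, 1024 and 571 in T cells and 296 and 193 in endothelium. It was the only 1 of the 36 genes called lower in endothelium than in fibroblasts (-2.89 ± 0.15), and with Oas1a, Zbp1 and Mx1 it made up the 4 called lower than in macrophages (-4.57 ± 0.16).

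Among the remaining genes Ifi44, whose product gathers with microtubules, had 55.5 and 59.5 CPM in endothelium and no more than 1.41 CPM in any mouse of fibroblasts or macrophages, on 8 and 20 UMIs in all. Its log2 differences were 5.80 ± 0.40 and 5.05 ± 0.34. Xaf1, a promoter of cell death, had 216 and 244 CPM in endothelium, 76.3 and 69.6 in macrophages and 64.6 and 61.6 in fibroblasts, and Phf11d 138 and 149, 49.4 and 45.0, and 55.7 and 55.8 CPM. Both were called in both comparisons. Ifi35 had 182 and 174 CPM in endothelium, 93.6 and 62.8 in macrophages and 90.8 and 80.4 in fibroblasts, and at a log2 difference of 1.00 ± 0.16 it lay just inside the call against fibroblasts, which it left without mouse as a block or with cells of several gates kept. Parp14, an ADP-ribosyl transferase, had 112 and 89.3 CPM in endothelium, 51.4 and 62.2 in macrophages and 27.7 and 21.5 in fibroblasts. Rtp4 and the ubiquitin ligase gene Trim30a were not called between endothelium and macrophages. Rtp4 had 204 and 231 CPM in endothelium and 191 and 174 in macrophages, with endothelium above in CPM in both mice and a fitted log2 difference, after TMM scaling, of -0.15 ± 0.16. Trim30a had 119 and 113 CPM in endothelium and 188 and 118 in macrophages, which overlapped.

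Macrophages ranked between endothelium and fibroblasts. Against fibroblasts, 17 of the 36 genes were called higher in macrophages (18.1% of all genes tested) and none lower (19.3% of all genes), with a median of 0.85 against -0.01 over all genes. DESeq2 also called none lower, and 1 gene had an unadjusted p below 0.05 in that direction in edgeR. The largest differences were in Oas1a (4.49 ± 0.23), Mx1 (3.58 ± 0.59), Trim30a (2.84 ± 0.18) and Zbp1 (2.62 ± 0.21). Ifit1 (-0.03 ± 0.19), Ifit3 (0.28 ± 0.18) and Iigp1 (-0.03 ± 0.20) were not called.

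T cells had low levels of most of the list, on 340 to 498 UMIs of the 36 genes per mouse. Against macrophages, 18 genes were called lower in T cells (15.9% of all genes) and 1 higher (7.34% of all genes). The median was -1.62, or -1.55 with groups at 0 set to their bound, and -0.42 over all genes. Ifitm3 (-4.96 ± 0.18), Ifi27l2a (-2.96 ± 0.16) and Oas1a (-2.92 ± 0.44) were furthest below among the genes with more than 3 T cell UMIs. Endothelium was called above T cells for 27 genes (18.0% of all genes) and below them for 2, Zbp1 and Ifi27l2a (10.1% of all genes). Ifi27l2a was not called there when cells of several gates were kept. Of the 27, 9 rest on 3 T cell UMIs or fewer. The comparison had a median of 2.05 (2.00 at the bound) against 0.35 over all genes.

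Mural cells were the thinnest class, with 385 and 155 UMIs of the 36 genes. Endothelium was called above them for 21 genes (7.48% of all genes) and below them for none (4.81% of all genes). In the lower direction DESeq2 called none and no gene had an unadjusted p below 0.05 in edgeR. The median was 2.21, or 1.82 at the bound, against 0.37 over all genes. Of the 21 calls, 12 rest on more than 3 mural UMIs, among them Iigp1 (3.84 ± 0.50), Isg15 (2.57 ± 0.35), Bst2 (2.37 ± 0.22) and Rtp4 (1.85 ± 0.37). Iigp1 is just above that cut, with 3 and 1 mural UMIs in mouse 1 and mouse 2. The other 9 calls rest on 0 to 3. Gbp3, with 0 mural UMIs, was at least 4.37-fold higher in endothelium, and Usp18 at least 3.41-fold. When cells passing several gates were counted in each class, 3 of the 21 genes (Usp18, Iigp1 and Trim30a) were called. In that setting the 53 and 43 mural cells that also passed another gate joined the class. Between mural cells and fibroblasts 1 gene was called higher in mural cells (4.26% of all genes) and 3 lower (7.44% of all genes), with a median of -0.45 (-0.22 at the bound) against -0.38 over all genes. The lower ones were Ifi27l2a (-3.58 ± 0.23), Ifitm3 (-1.02 ± 0.14) and Gbp2, of which mural cells had 1 UMI and fibroblasts a level 9.83-fold higher (95% counting interval 1.76 to 389). With cells of several gates kept, Gbp2 turned to 85.7 and 119 CPM in mural cells against 73.0 and 58.0 in fibroblasts and was not called, and Ifitm3 was not called there, with RLE size factors or in DESeq2. DESeq2 did not call Gbp2 either. The higher one was Ifi44, on 3 mural UMIs.

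Subsets within a class were compared next. Endothelial cells with Vwf, a gene of veins and larger vessels (62 and 53 cells), were set against those with Hey1 or Btnl9, genes of arterial and capillary endothelium (122 and 122 cells), over 2855 genes and with 1 residual degree of freedom. Of the 22 genes of the list that passed the filter on low counts, 1 was called higher in the Vwf cells (7.29% of all genes tested) and 2 lower (5.95% of all genes). Rsad2 had 38.6 and 40.5 CPM in the Vwf cells against 261 and 249 CPM, a log2 difference of -2.70 ± 0.40, on 4 UMIs in each mouse. Xaf1 had 77.1 and 122 CPM against 292 and 229 (-1.43 ± 0.35), and Igtp 145 and 213 CPM against 49.4 and 110 (1.15 ± 0.37, adjusted p = 0.048). The subsets did not overlap for these 3 genes, but DESeq2 called none of them. Macrophages with Ccr2, a receptor of recruited monocytes (159 and 119 cells), were set against those with the resident-type genes Lyve1, Timd4 or Folr2 (2111 and 1445 cells) over 9298 genes. Of 35 genes none was called higher (3.31% of all genes) and 2 were called lower (3.96% of all genes). Iigp1 had 3.40 and 5.07 CPM in Ccr2 cells on 2 UMIs in each mouse, against 20.4 and 30.8 CPM. Gbp7 had 27.2 and 27.9 CPM against 58.5 and 70.4 CPM, a log2 difference of -1.12 ± 0.26. DESeq2 called neither, and none higher. In the higher direction 2 of the 35 had an unadjusted p below 0.05 in edgeR.

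The other genes of the pathway came from 5 lists of genes outside the 36. Their counts stand beside the shares of all genes given above, 14.3% called higher and 16.0% lower in endothelium than in fibroblasts, 16.6% and 16.5% against macrophages, and 18.1% higher in macrophages than in fibroblasts. Receptors were read in all classes. Ifnar1 had 42.8 and 42.2 CPM in endothelium, 41.7 and 52.5 in macrophages and 31.1 and 27.3 in fibroblasts, and Ifnar2 74.7 and 83.3, 98.5 and 102, and 118 and 101 CPM. Of 6 ligands and receptors tested, none was called between endothelium and fibroblasts, and at an unadjusted p below 0.05 in edgeR 2 were higher and 3 lower. Of the interferon genes themselves, Ifnb1, Ifna1, Ifna2, Ifna4, Ifna5, Ifnk, Ifnl2 and Ifnl3 had 0 UMIs in all kept cells of both mice. That allows up to 0.0454% of cells with a UMI in mouse 1 and 0.0528% in mouse 2, for counting error only. Ifng, the type II interferon, had 45 and 46 UMIs in 31 and 26 cells. The T cell class held 20 and 30 of these UMIs, or 95.2 and 157 CPM. Endothelium had none.

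Of 11 signalling genes, 2 were called higher in endothelium than in fibroblasts and none lower in edgeR, where 2 had an unadjusted p below 0.05 in the lower direction. Among those called higher, Irf9 had 83.0 and 105 CPM in endothelium against 46.1 and 37.0 (1.11 ± 0.18), and it was not called between endothelium and macrophages (0.07 ± 0.17). Among 15 tested sensing genes, 4 were called higher and 1 lower in endothelium than in fibroblasts, and 1 and 7 against macrophages, with Tlr7, a sensor of single-stranded RNA, at 2.55 and 0 CPM in endothelium and 52.9 and 42.3 in macrophages. Of 15 genes of class I antigen presentation, 13 were called higher in endothelium than in fibroblasts and 10 higher in macrophages than in fibroblasts. Of 47 tested genes on a list of other interferon-stimulated genes, 30 were called higher and 4 lower in endothelium than in fibroblasts, and 11 each way against macrophages. The signalling count against fibroblasts and the counts of other interferon-stimulated genes against macrophages lie near those shares. The largest rises over fibroblasts were Cxcl9 (a T cell attractant, 119 and 115 CPM against 1.33 and 3.34), Gbp4 (81.1 and 132 against 2.46 and 2.73) and the GTPases Tgtp1 (12.8 and 21.3 against 0 and 0.910) and Tgtp2 (23.6 and 41.2 against 0.947 and 0.607). Ifitm1 (10.8 and 4.46 CPM against 193 and 38.2) and Ifi204 (33.2 and 30.2 against 206 and 78.6) stood furthest the other way.

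Single cells were scored next, to see how a class level was spread over its cells. Each cell with at least 1000 UMIs was thinned to 1000, and its score was the number of UMIs of the 33 genes. A cell was called high-scoring at 5 or more. In endothelium 24.0% of 874 cells in mouse 1 (95% exact interval 21.2 to 27.0) and 27.9% of 1082 cells in mouse 2 (25.3 to 30.7) were high-scoring, a mean of 26.0% ± 2.75 (SD, n = 2). Macrophages had 6.21% (5.37 to 7.14) of 2980 cells and 5.32% (4.44 to 6.31) of 2312 cells, and fibroblasts 2.87% (2.16 to 3.74) of 1846 and 1.98% (1.29 to 2.91) of 1262. The order endothelium, macrophages, fibroblasts held in both mice with no overlap. T cells had 2 of 101 and 1 of 86 cells, or 1.98% (0.241 to 6.97) and 1.16% (0.0294 to 6.31). Mural cells had 4 of 55, or 7.27% (2.02 to 17.6), and 0 of 29, which allows a share of up to 10.3% by 3 cells of the total and 11.9% by the exact interval, so their place was not detectable at this depth. Intervals cover counting error only. No test was made between classes, as cells of a mouse are not replicates. Before thinning, the shares with at least 5 score UMIs were 40.5% and 43.7% in endothelium, 35.8% and 25.9% in macrophages and 16.2% and 8.83% in fibroblasts, from cells of unequal depth.

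**Figure D3:**
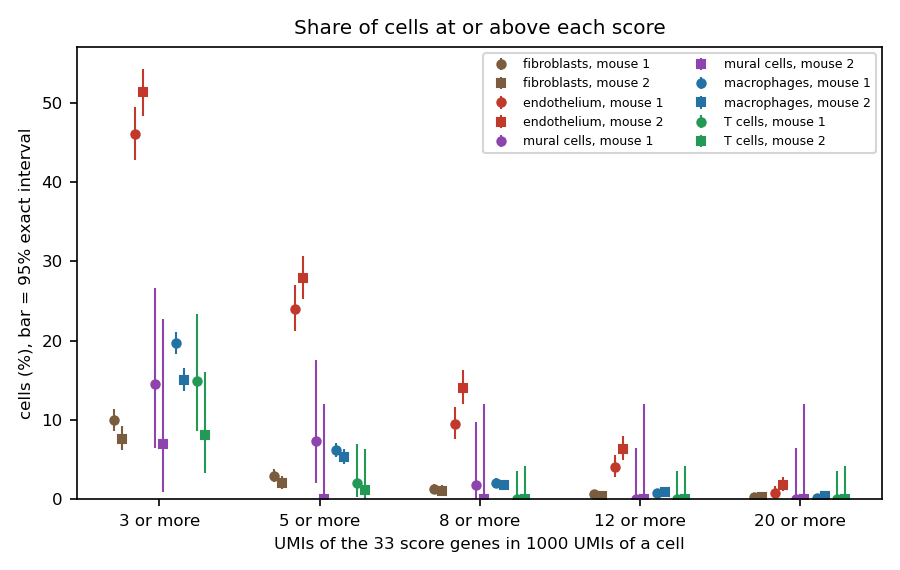
Share of cells (%) with at least 3, 5, 8, 12 or 20 UMIs of the 33 score genes in 1000 UMIs, for each class and mouse, with 95% exact intervals for counting error. Endothelium stands above the other classes in both mice at 3 to 12 UMIs, and at 12 or more its shares are 4.00% and 6.28%.

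The scores were uneven within every large class. Score variance divided by its mean, which would be near 1 for cells that differ by counting alone, was 3.804 and 9.41 in endothelium, 3.82 and 4.07 in macrophages, 3.90 and 4.10 in fibroblasts, and 1.37 and 1.21 in T cells. High-scoring cells held 59.9% and 67.6% of the score UMIs of endothelium, 30.8% and 32.0% of those of macrophages and 25.5% and 23.2% of those of fibroblasts. The endothelial cells below the threshold still had a mean score of 1.75 and 1.83, above the 1.18 and 1.03 of macrophages and the 0.815 and 0.676 of fibroblasts. Both values come from dividing 1 score at its own threshold. The highest score was 129, in an endothelial cell of mouse 2 that carried 24 of the 33 genes, with 28 UMIs of Rsad2 and 20 of Isg15. This cell enters the ratio of 9.41, which was not formed without it. The next scores were 67 in endothelium of mouse 2 and 62 in a macrophage of mouse 1.

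High-scoring endothelial cells had a median depth of 1530 and 1515 UMIs, against 1486 and 1508 in the others, and their median number of distinct score genes was 6 in both mice. The summed macrophage markers were 1139 and 960 CPM in high-scoring endothelium and 1156 and 973 CPM in the rest. The summed neutrophil markers differed, at 374 and 1.94 CPM against 851 and 5.26 CPM in the rest. They were 121 and 37.1 CPM against 376 and 21.5 CPM in macrophages, and 606 and 0 CPM against 292 and 2.82 CPM in fibroblasts, and their part in the results below was not tested. Since the score chose these cells, their levels of the 33 genes are a description. Isg15 was found in 53.3% and 50.3% of high-scoring endothelial cells and in 6.48% and 8.85% of the others, and it made up 13.6% and 12.2% of their score UMIs. In high-scoring macrophages Isg15 was followed by Rtp4 (8.44% and 10.1% of score UMIs) and Trim30a (7.82% and 5.86%). In endothelium it was followed by Iigp1 (7.22% and 10.5%) and Rsad2 (7.27% and 8.29%). In high-scoring fibroblasts Ifit3 (12.6% and 9.09%) came first in mouse 1, and Isg15 came first in mouse 2 at 11.9%.

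Detection of the genes together, at the same 1000 UMIs per cell, was also described by Isg15 alone. In endothelium Ifit1 was found in 29.0% and 32.1% of cells with Isg15 and in 4.45% and 5.23% of cells without it. In macrophages the shares were 11.8% and 14% against 2.16% and 1.39%, and in fibroblasts 12.2% and 15.4% against 3.31% and 1.65%. Irf1 differed less in endothelium, where it was found in 13.5% and 13.1% of cells with Isg15 and in 11.7% and 13.01% of those without. Ifit1 was thus found more often beside Isg15 in all 3 classes, and the Irf1 shares differed by less than 2 points in endothelium.

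Genes outside the 36 were then compared between high-scoring and other cells of the same class, since the score did not use them (UMIs summed per mouse, edgeR, 1 residual degree of freedom). In endothelium 25 of 38 tested genes on the list of other interferon-stimulated genes were called higher in high-scoring cells, where 0.637% of all 7536 genes outside the 36 were. In macrophages 35 of 46 were, against 1.23% of 9784 genes, and in fibroblasts 17 of 35, against 0.430% of 9526 genes. None of that list was called lower in any of the 3 classes, and none was lower at an unadjusted p below 0.05. Signalling genes were called for 2 of 9, 1 of 11 and 3 of 10, class I antigen presentation for 1 of 15, 3 of 15 and 5 of 14, and sensing for 0 of 10, 3 of 14 and 1 of 12. Of 5 receptors tested in each class none was called in edgeR, and at an unadjusted p below 0.05 there was 1, lower in macrophages. Over all 5 lists edgeR called 28, 42 and 26 genes higher. DESeq2 called 8 in endothelium and 10 in fibroblasts, and without mouse as a block edgeR called 14 and 4.

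**Figure D4:**
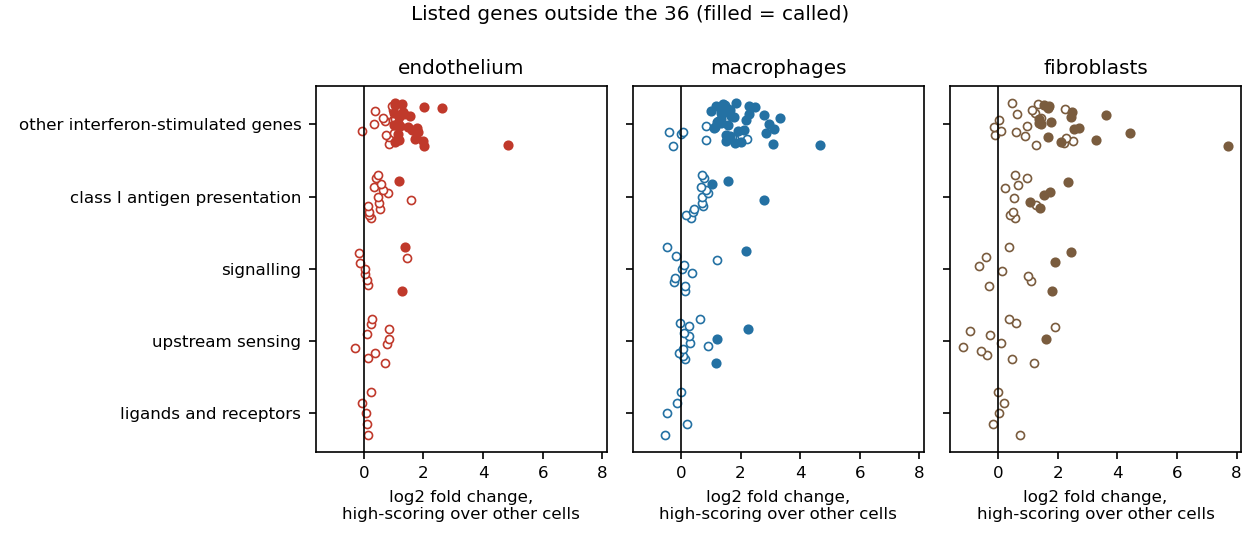
Log2 fold change of high-scoring over other cells for listed genes outside the 36, by list (rows) in endothelium, macrophages and fibroblasts, with filled points for called genes. Most filled points lie in the top row, and no receptor is filled.

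By the rule for named genes, the rises in endothelium were led by Gm4951, an interferon-inducible GTPase gene (61.9 and 69.8 CPM against 17.5 and 6.77, log2 2.54 ± 0.34), the checkpoint ligand Cd274 (53.9 and 89.2 CPM against 6.98 and 27.8, 2.03 ± 0.30), Tgtp2 (2.00 ± 0.30) and the helicase gene Ddx60 (1.99 ± 0.34). Ifi47, Irgm2, Rnf213 and Gbp5 followed at 1.74 to 1.83. In macrophages the chemokine gene Cxcl10 led, with 116 and 114 CPM against 3.95 and 5.34 (4.68 ± 0.25), before Pydc3 (3.35 ± 0.27), Oas3 (3.31 ± 0.29) and Isg20 (3.11 ± 0.27). Ms4a4c, Ifi47, Gm4955 and Slfn1 followed at 2.78 to 2.95. In fibroblasts Cxcl10 had 66.6 and 681 CPM in high-scoring cells, and 1.76 and 0 CPM in the others, on 9 UMIs. Ifi47 (113 and 252 CPM against 8.99 and 4.38, 4.44 ± 0.53) and Gm4951 (127 and 252 CPM against 9.97 and 5.95, 4.27 ± 0.50) came next, then Plscr2 (3.20 ± 0.57), Irgm2 (2.72 ± 0.58), Irgm1 (2.54 ± 0.38) and Slfn2 (2.47 ± 0.43).

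Of the signalling genes, Irf9 was called higher in high-scoring cells of endothelium (1.28 ± 0.19) and fibroblasts (1.81 ± 0.38), and was at 0.14 ± 0.20 in macrophages. The difference between the classes was not tested. The receptor gene Ifnar1 was at 0.14 ± 0.28, -0.52 ± 0.27 and 0.74 ± 0.56 in endothelium, macrophages and fibroblasts, none of them called.

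The mice were compared within a class as well. Of the genes with at least 20 UMIs in both mice, 25 of 35 had a mouse 2 to mouse 1 ratio above 1 in endothelium, with a median ratio of 1.14. In fibroblasts 7 of 31 did, with a median of 0.774, and in macrophages 16 of 35, with a median of 0.913. With 1 library per mouse these ratios have no test. They were not formed over all genes, so a shift of these genes cannot be told apart from a shift between the libraries. The summed GTPases had the higher value in mouse 2 in endothelium (710 and 1090 CPM) and macrophages (149 and 215 CPM), and in mouse 1 in fibroblasts (186 and 140 CPM).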

How the data were processed

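Single-cell RNA was captured with version 2 of a droplet 3′ kit. The deposited tables are raw counts, UMIs per gene symbol and barcode, which the authors made with Cell Ranger 2.2.0 and mouse build mm10 (FastQC without a version), per the submitters' processing notes. How the authors chose barcodes is not given in the sources used here. Tables held 7732 and 6367 barcodes with 21355383 and 15174548 UMIs.

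Cells needed 500 or more UMIs, 300 or more genes and no more than 10% of UMIs from mitochondrial genes. This left out 719 and 432 barcodes. Scrublet (scanpy 1.11.5) removed 405 and 248 called doublets. Cells passing several gates (201 and 133) or none (469 and 495) entered no class. Counts summed per class and mouse were tested with edgeR 4.0.16 (R 4.3.3): TMM scaling, filterByExpr, quasi-likelihood F tests, a replicate block for mouse (all classes were taken from both animals), and Benjamini-Hochberg adjustment over all genes tested. The class fit used 10 sums with 4 residual degrees of freedom. Alternatives were DESeq2 1.42.0, other size factors, no filter, no block, no fold floor, other gates and scores, and each mouse left out. The fits were tested on simulated data. The score was planned over 34 genes and used the 33 present. Promoter and annotation coordinates are GRCm38, the build also called mm10. Named genes are all members and, per comparison, listed genes among those called (at most 4 rises and 2 falls, 8 rises of any kind for high-scoring cells). 1 gene that this rule names is not reported here. Members, gates and lists were chosen with earlier results of these data known. As 3′ counts are not scaled to length, levels were compared between classes and not between genes.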

Additional observations from a re-analysis of the deposited data

Results flagged for a closer look

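Cells outside the 5 classes also held high-scoring cells, at shares above those of fibroblasts, macrophages and T cells. Among cells of at least 1000 UMIs that passed no gate, 12.6% of 429 in mouse 1 (95% exact interval 9.60 to 16.1) and 12.1% of 380 in mouse 2 (9.0 to 15.8) were high-scoring. Among cells that passed several gates the shares were 10.4% of 201 (6.58 to 15.5) and 12.2% of 131 (7.15 to 19.1). These cells have no class here, so what they hold was not tested.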

How the results depend on the processing

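The endothelial lead over fibroblasts (29 called higher) and over macrophages (16) stayed within 1.5 times under every alternative run. With cells of several gates kept, endothelium was called above mural cells for 3 genes in place of 21 and below T cells for 1, T cells above macrophages for 2, and mural cells above fibroblasts for 4 and below for 1. DESeq2 called 2 genes higher in T cells than in macrophages and 1 lower in mural cells than in fibroblasts, and RLE size factors 2 higher in T cells than in macrophages. RLE also moved the median of all genes (log2) by 0.23 for T cells against macrophages, 0.19 for mural cells against fibroblasts, -0.16 for endothelium against T cells and -0.17 against mural cells, and DESeq2 by 0.40, 0.33, -0.24 and -0.30. Keeping cells of several gates moved it by 0.13, 0.28, -0.06 and -0.23. With no fold floor, 1 gene was lower in macrophages than in fibroblasts, 2 were higher in T cells than in macrophages, and Ccr2 macrophages had 1 higher and 6 lower. For Vwf endothelium 0 genes were called higher with no filter, DESeq2, no replicate block or doublet calls kept, and 4 (no filter) and 0 (DESeq2) lower. For Ccr2 macrophages 0 were called lower with DESeq2 or no replicate block. Without the replicate block, 14 listed genes were called for high-scoring endothelium in place of 28, and 4 for fibroblasts in place of 26. DESeq2 gave 8 and 10, a threshold of 3 score UMIs gave 16 for endothelium, and no fold floor 44. The cause was not tested.

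With 1 mouse left out, median log2 differences are values with no test. They ranged from 1.82 to 4.08 for endothelium against mural cells, 2.43 to 2.75 against T cells, 0.79 to 1.17 for macrophages against fibroblasts, -1.83 to -1.76 for T cells against macrophages, and -1.30 to -0.34 for mural cells against fibroblasts. They changed sign for Vwf endothelium (-0.79 to 0.013, the upper value without mouse 1) and Ccr2 macrophages (-0.39 to 0.16, the upper value without mouse 2).

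Mean shares of high-scoring cells followed the threshold by construction. At 3 or more UMIs they were 48.7% in endothelium, 17.4% in macrophages, 8.76% in fibroblasts, 10.7% in mural cells and 11.5% in T cells. At 8 or more they were 11.8%, 1.95% and 1.17% in the first 3 and 0% in T cells. With all 36 genes in the score they were 76.8%, 73.3%, 56.7%, 30.3% and 9.92%, and the summed CPM was 8947, 9230, 5982, 3522 and 2076, with macrophages first in the sum of mouse 1 only. At 10 of 2000 UMIs macrophages had 4.37% and T cells 0%. With 5 per 1000 and no thinning, endothelium had 22.6%, macrophages 3.39% and T cells 0%. With cells of several gates kept, mural cells had 13.1% and 2009 CPM, and T cells 1114 CPM.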

Other observations

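Among endothelial genes outside the lists, high-scoring cells had less of several genes, chosen here after their values were seen. Ccl21a, a chemokine gene of lymphatic endothelium, had 8.08 and 198 CPM in high-scoring cells against 608 and 2269 CPM in the others (log2 -3.73 ± 0.11). Lyve1, a receptor also known from lymphatic endothelium, had 29.6 and 46.5 CPM against 98.6 and 84.2 (-1.17 ± 0.25), and Igfbp5 had 21.5 and 116 CPM against 147 and 198 (-1.23 ± 0.20). Nbl1 had 21.5 and 23.3 CPM against 59.3 and 53.4 (-1.27 ± 0.31). All of these genes were lower in the high-scoring cells of both mice. The log2 ratios of mouse 1 and mouse 2 were -6.23 and -3.52 for Ccl21a, with 3 UMIs in high-scoring cells of mouse 1. They were -1.73 and -0.86 for Lyve1, -2.77 and -0.77 for Igfbp5, and -1.46 and -1.20 for Nbl1. The SEs come from a fit with 1 residual degree of freedom and do not show this spread between the mice.

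In fibroblasts, 46 of the 56 Cxcl10 UMIs of high-scoring cells came from mouse 2, which had 25 high-scoring cells against 53 in mouse 1. With 0 UMIs in the other fibroblasts of mouse 2, no fold was formed there.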
